A study of Homo sapiens with 15 samples.

Results

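Day 20 of cardiac differentiation was compared with day 11 in bulk RNA-seq libraries of H1 cells, an established line of human embryonic stem cells. The comparison took every gene that passed a filter on low counts, which left 21398 of the 48777 genes listed, and asked which genes and functions rose or fell as committed cardiac progenitors were kept in culture for longer. Both groups carried no genetic change and no treatment apart from the protocol itself. The cells were seeded on recombinant laminins, LN-521 together with LN-221, and were taken to the cardiac lineage with CHIR99021, an inhibitor of GSK3 that switches on Wnt signalling, and later with IWP2, which stops the secretion of Wnt proteins. The base medium was RPMI with B27 lacking insulin, and from day 11 onwards RPMI with CTS B-27. The day 11 group and the day 20 group each held 3 libraries, which the labels give as biological replicates. Not all day 20 libraries carry different plate numbers, as given below, and whether they came from independent cultures is not stated. The series held 15 libraries from 5 days in all. All came from 1 cell line and, within a dish, from mixed cells that were not sorted, so that in bulk RNA fewer cells of a type and less RNA per cell cannot be told apart.

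By way of background, a progenitor that commits to the heart first expresses transcription factors and early contractile proteins and then replaces parts of the contractile machinery. The human ventricle turns from the alpha to the beta myosin heavy chain and takes up the ventricular regulatory light chain, while the atrium keeps the alpha chain. Maturing heart muscle also leaves the cell cycle, burns more fatty acid and loses proteins of embryonic growth such as LIN28.

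The 6 libraries held 15675095 to 26858099 counted reads each. Day 20 replicate 2 stood apart from the other 5 libraries. Its RNA integrity number, a score of RNA quality with a maximum of 10, was 6.1, against 8.8 to 9.9 in the others. All 226 autosomal protein-coding genes that had been silent on days 0 to 11 held reads in it, at a median of 8.64 reads per kb, which over all genes comes to 7.24% of its counts. The same measure was 0.446 reads per kb (0.319% of counts) in day 20 replicate 3 and 0 in day 20 replicate 1. It was also 0 in the 3 day 11 libraries, where the choice of genes silent on days 0 to 11 keeps it near 0. For this reason a gene was called only if its adjusted p-value was under 0.05 and day 20 replicates 1 and 3 both lay above, or both below, all 3 day 11 libraries, and the comparison was repeated without day 20 replicate 2. Pearson's r of log2 CPM lay between 0.945 and 0.978 within day 11 and between 0.899 and 0.948 within day 20. The defining markers of cardiomyocytes were present on both days (TNNT2 at 244 to 1745 TPM, ACTN2 at 82.0 to 1144 TPM), as were those of mesenchyme (COL1A1 at 137 to 1705 TPM), while PTPRC of blood cells was at 0 in the 3 day 11 libraries and between 0.0385 and 4.08 TPM on day 20, highest in replicate 2, where 54.1% of its reads were at the level of the background.

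At an adjusted p-value under 0.05 in edgeR's quasi-likelihood test, 239 genes rose (1.12% of those tested) and 93 fell (0.435%) from day 11 to day 20. In all 332 the 3 day 20 libraries lay beyond the 3 day 11 libraries. The adjusted p-value alone gave the same 332 calls, so that the rule of agreement between day 20 replicates removed no gene. An unadjusted p-value under 0.05 was reached by 3564 genes. The genes that rose did so by a median of 3.76 on the log2 scale, and 134 of them had a mean under 1 TPM, a read density scaled to the same total in each library, on day 11. The genes that fell did so from higher levels: their median log2 fold change was −2.08, and 32 of the 93 had a mean of at least 100 TPM on day 11. The median over all genes tested was 0.066. Of the called genes, 223 that rose and 85 that fell code for proteins.

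Without day 20 replicate 2, 355 genes (1.64% of 21682) were higher and 155 (0.715%) were lower, with a median of −0.0084 over all genes. The calls of both fits shared 206 higher and 68 lower genes. In both fits the rule sets the direction by day 20 replicates 1 and 3, so that calls in opposite directions could not arise. For the size of the spread, day 20 replicates 1 and 3 both lay above day 11 for 19.8% of all genes and both below for 19.2% (19.7% and 19.2% in the fit without replicate 2), and all 3 day 20 libraries lay above for 11.8% and below for 10.6%. The calls rest on all day 11 libraries: without day 11 replicate 1 or replicate 3 no gene was called (2382 and 2827 genes at an unadjusted p-value under 0.05), and without day 11 replicate 2 there was 1. With the plate as a block the 332 calls became 3, and in DESeq2 they became 1778.

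**Figure D1:**
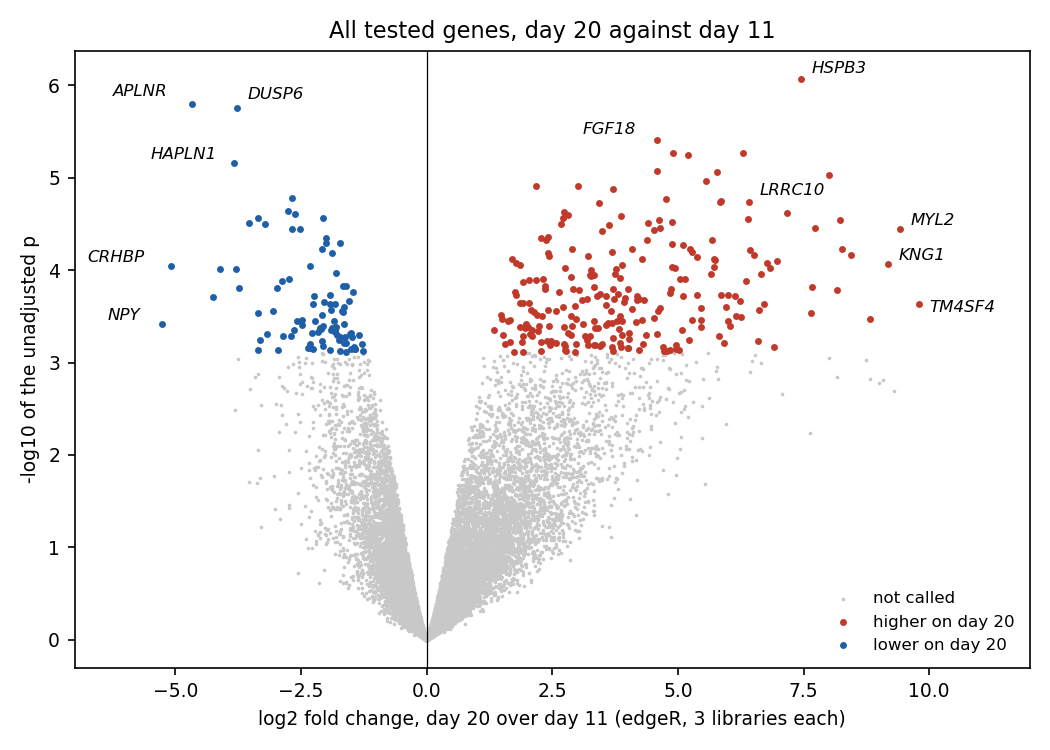
Log2 fold change of day 20 over day 11 against −log10 of the unadjusted p-value for the 21398 genes tested with 3 libraries per day. The 239 genes called higher (red) reach further from 0, up to a fitted 9.80, than the 93 called lower (blue), which reach −5.26; grey genes were not called.

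The thick filament of the sarcomere showed the ventricular myosins rising. MYH7 (chr14:23412740-23435660, minus strand, GRCh38), the beta myosin heavy chain of the ventricle, was at 9.30, 26.2 and 19.5 TPM in the day 11 libraries and at 1441, 683 and 336 TPM in day 20 replicates 1, 2 and 3. All day 20 libraries lay far above day 11, replicate 3 least. The log2 fold change was 5.37 ± 0.73 (SE; adjusted p = 0.0218, edgeR). MYH6, the alpha chain that serves the atrium and the early heart, did not pass the test, with 2745, 10863 and 1598 TPM on day 11 and 10790, 7924 and 1877 TPM on day 20. Its libraries overlapped between days and differed up to several-fold within each day. MYH6 and MYH7 are neighbouring genes of nearly the same sequence, so that reads could be split between them.

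To set both chains against each other within a library, MYH7 was also taken as a percentage of the summed TPM of MYH7 and MYH6. The share of MYH7 was 0.338%, 0.241% and 1.21% on day 11 and 11.8%, 7.94% and 15.2% on day 20, the last in the day 20 library with the least MYH6. The days did not overlap, and the means were 0.595% ± 0.531 and 11.6% ± 3.63 (SD, n = 3 each; exact permutation test, two-sided, p = 0.1, the smallest that 3 against 3 can give). MYH6 therefore still made up most of the pair on day 20.

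MYL2 (chr12:110910819-110921443, minus strand), the regulatory light chain of the ventricle, was all but absent on day 11, with 0, 0 and 0.117 TPM and 1 count in all. On day 20 it reached 63.8, 65.1 and 8.41 TPM. The ratio of pooled CPM was 1023, with an exact 95% interval from 183 to 40452 that covers counting error only (adjusted p = 0.0173, edgeR). It remained far under MYL7, the light chain of the atrium and the early heart, of which there were 1622 to 7820 TPM on day 11 and 2267 to 10128 TPM on day 20. The share of MYL2 in the sum of both light chains was at most 0.800% in any library. In the third pair of isoforms, that of troponin I, the share of the adult TNNI3 was 8.23% ± 3.55 on day 11 and 6.53% ± 2.88 on day 20 (SD, n = 3 each; exact permutation test, p = 0.6), and the libraries of the days overlapped.

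Of the 15 thick filament genes tested, 3 rose (MYH7, MYL2 and MYH7B), none fell and the median log2 fold change was 1.85, against 0.066 over all genes. MYH7B, a slow myosin, was at 2.70 to 6.39 TPM on day 11 and at 15.9 to 73.6 TPM on day 20 (3.41 ± 0.60, adjusted p = 0.0392). When day 20 replicate 2 was left out, the calls were MYH7, MYL2 and MYOM3, and MYH7B had an adjusted p of 0.0649. The exons of MYH7B overlap those of GSS and TRPC4AP on the other strand, and whether reads were counted by strand is not stated. MYL3, the essential light chain of the ventricle, did not pass the test, at 73.6 to 413 TPM and then 869 to 3028 TPM (3.18 ± 0.72, adjusted p = 0.0733). None of the 14 thin filament genes was called, with a median of 0.66. ACTC1, the cardiac actin, was at 1953, 3924 and 1758 TPM and then at 1495, 1913 and 419 TPM, and TNNT2 at 332, 956 and 244 TPM and then at 838, 1745 and 353 TPM. Neither separated the days.

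Z-disc proteins anchor the thin filaments at the ends of the sarcomere. Of 22 Z-disc genes tested, 4 rose and none fell (median 2.19), where 1.12% of all genes rose and 0.435% fell. In 10 of them (45.5%) day 20 replicates 1 and 3 both lay above day 11, against 19.8% of all genes. MYOZ2, a calcineurin-binding protein of the Z-disc, was at 12.3, 24.6 and 11.1 TPM and then at 331, 348 and 77.2 TPM (3.80 ± 0.59, adjusted p = 0.0292). MYPN, which ties titin and nebulin to alpha-actinin, rose from 0.0966 to 0.464 TPM to between 4.29 and 28.2 TPM (5.73 ± 0.78, adjusted p = 0.0221). PDLIM3 and SYNPO2 rose less. The calls in this list were MYPN and PDLIM3 when day 20 replicate 2 was left out. MYOZ2 then had an adjusted p of 0.0528.

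Several genes known from muscle or heart were among the 15 largest increases and are described here, chosen after their values were seen. HSPB3 (chr5:54455699-54456377, plus strand), a small heat shock protein of muscle, was at 1.09, 0.491 and 1.02 TPM on day 11 and at 190, 276 and 78.8 TPM on day 20. These groups were far apart, and the log2 fold change of 7.45 ± 0.56 had an adjusted p-value of 0.0124, the smallest in the data, which APLNR and DUSP6 share. LRRC10 (chr12:69608564-69610907, minus strand), a cardiac leucine-rich repeat protein, rose from 0.815 to 1.72 TPM to between 54.3 and 203 TPM (6.42 ± 0.72, adjusted p = 0.0173). MLIP, a muscle protein that binds lamin, rose from at most 0.394 TPM to between 11.7 and 54.0 TPM (7.17 ± 0.84, adjusted p = 0.0173). SPHKAP, an anchoring protein of protein kinase A that the heart expresses, rose from 0.592 to 0.851 TPM to between 21.9 and 94.1 TPM (6.29 ± 0.60, adjusted p = 0.0172). In these genes, as in MYH7, day 20 replicate 3 was the lowest of its day.

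**Figure D2:**
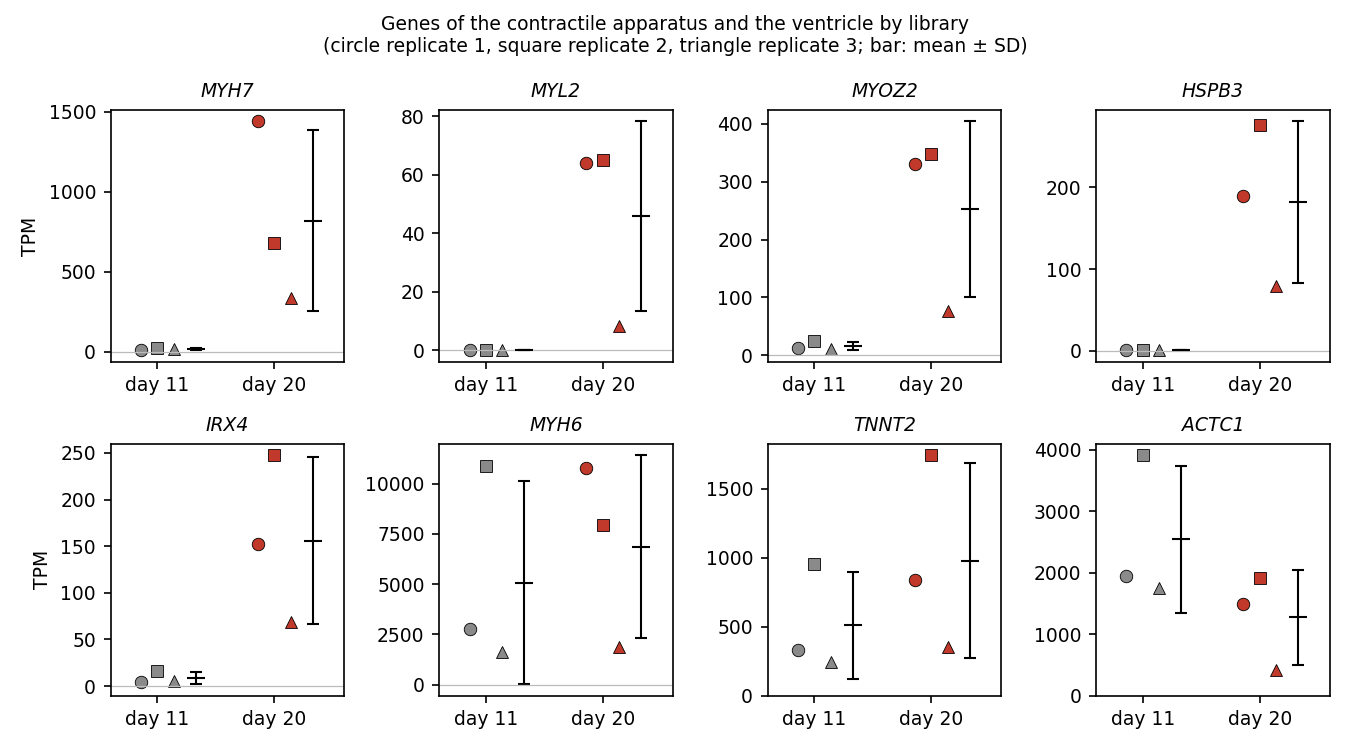
TPM (vertical axis) of 8 genes in the 3 day 11 (grey) and the 3 day 20 (red) libraries, with mean ± SD beside the points. MYH7, MYL2, MYOZ2, HSPB3 and IRX4 are separated by day, whereas MYH6, TNNT2 and ACTC1 overlap and vary as much within a day as between days.

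The amount of muscle RNA differed between libraries of the same day. The summed TPM of the thick filament list was 6744, 22823 and 5260 on day 11 and 27384, 29080 and 7108 on day 20. Day 11 replicate 2 was thus close to the level of day 20, and day 20 replicate 3 close to that of day 11. The summed TPM of the 15 fibroblast and mesenchyme genes ran 4500, 1951 and 8599 on day 11 and 3778, 1656 and 25516 on day 20, highest in day 20 replicate 3. The part of these differences in the muscle results was not tested.

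The promoters of 3 muscle genes that rose are shown as examples of the motifs counted here, and were chosen because they hold a match. Those of LRRC10, PDLIM3 and KNG1, which also rose, hold none of these motifs in the same stretch and are not shown. The sequences are RefSeq's (GRCh38.p14), cover the 100 bases before the annotated start, and run 5′ to 3′ on the strand of the gene. Capitals mark the TATA box, searched as TATAAA on that strand only. They also mark 4 motifs searched on both strands. The motif of TEAD factors was searched as CATTCC. An E-box of muscle factors was searched as CAGCTG. The motif of GATA factors was searched as AGATAA. The CCAAT box was searched by the letters of its name.

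HSPB3, chr5:54455599-54455698, plus strand: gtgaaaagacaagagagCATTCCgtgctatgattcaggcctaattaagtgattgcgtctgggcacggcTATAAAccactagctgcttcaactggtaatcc
TRIM63, chr1:26067631-26067730, minus strand: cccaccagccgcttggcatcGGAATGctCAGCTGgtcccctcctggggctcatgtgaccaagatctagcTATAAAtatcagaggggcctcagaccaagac
MYOZ2, chr4:119135732-119135831, plus strand: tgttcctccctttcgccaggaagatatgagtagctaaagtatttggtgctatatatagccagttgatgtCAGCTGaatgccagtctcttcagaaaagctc

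Counted to the first base of the match, HSPB3 and TRIM63 hold TATAAA at 32 and 31 bases before the start, and CATTCC at 83 and 80 bases. TRIM63 also holds CAGCTG at 72 bases, and MYOZ2 at 31 bases. Promoters were found in RefSeq's table for 12298 of the 15342 protein-coding genes tested, of which 9.50% held CATTCC, 13.1% CAGCTG and 5.21% AGATAA within 250 bases before the start. Each of these 3 motifs was held by 11 of the 38 promoters found for the 51 sarcomere genes (28.9%). Of the 169 promoters found for genes that rose, 14.8% held CATTCC, 14.8% CAGCTG and 10.1% AGATAA, and of the 36 found for plasma protein, complement and coagulation genes 16.7%, 16.7% and 13.9% did. TATAAA was held by 4.24% of all and by 14.2% of those of genes that rose. A match of letters is a description and marks no binding site.

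Among 25 cardiac transcription factors and cofactors, 2 rose and 2 fell, with a median of 0.01 that turned negative without day 20 replicate 2 (−0.19), in DESeq2 (−0.0072) and after background subtraction (−0.0035). IRX4 and HEY2, which mark the ventricle, rose. IRX4 was at 4.06, 16.6 and 5.84 TPM and then at 152, 248 and 68.7 TPM (3.94 ± 0.62, adjusted p = 0.0303), and HEY2, a target of Notch, at 16.3, 21.8 and 9.09 TPM and then at 150, 188 and 51.9 TPM (2.87 ± 0.48, adjusted p = 0.0356). All day 20 libraries were above all day 11 libraries for both genes. Both missed the threshold when day 20 replicate 2 was left out, at 0.0536 and 0.0582.

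ISL1, which marks second heart field progenitors, fell from 35.1, 33.5 and 35.0 TPM to 10.2, 9.82 and 13.9 TPM (−1.71 ± 0.31, adjusted p = 0.0425). TBX2, a repressor of chamber genes, fell from 66.6, 67.1 and 61.3 TPM to 29.3, 27.9 and 26.6 TPM (−1.34 ± 0.24, adjusted p = 0.0422). Both were uniform within each day, and both were also called without day 20 replicate 2. NKX2-5 stood at 100 to 459 TPM on day 11 and 135 to 411 TPM on day 20, and TBX5 and GATA4 likewise overlapped.

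None of the 22 genes of calcium release, uptake and buffering was called (median 1.19). Day 20 replicates 1 and 3 lay above day 11 in 5 of them (22.7%), close to the 19.8% of all genes. PLN, the inhibitor of the calcium pump, came nearest, with 182, 289 and 174 TPM and then 1871, 2063 and 447 TPM (2.58 ± 0.54, adjusted p = 0.0618). None of 20 ion channel genes was called (median 1.02). Both replicates lay above day 11 in 10 of them (50%) and below in 3 (15%), against 19.8% and 19.2% of all genes. Of 18 genes of gap junctions and intercalated discs 1 rose, GJA3, a connexin better known from the lens, from 2.98, 14.6 and 4.38 TPM to 191, 163 and 82.0 TPM (4.18 ± 0.66, adjusted p = 0.0304; list median 0.24). It was not called without day 20 replicate 2 (adjusted p = 0.0522). The main connexin of the working heart, GJA1, overlapped between days. Of the 6 natriuretic peptide genes none was called (median 0.06), and NPPA ran 18.6, 575 and 17.3 TPM and then 262, 260 and 20.2 TPM. NPPA and NPPB were highest of all libraries in day 11 replicate 2.

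Of 14 genes of muscle energy supply 2 rose (median 1.39). CKMT2, the mitochondrial creatine kinase of muscle, was at 3.49, 5.98 and 4.44 TPM and then at 103, 76.3 and 21.8 TPM (3.71 ± 0.56, adjusted p = 0.0282). TRIM63, a ubiquitin ligase that turns over sarcomere proteins, was at 1.46 to 5.21 TPM and then at 23.6 to 105 TPM (4.24 ± 0.67, adjusted p = 0.0304). TRIM63 was not called when day 20 replicate 2 was left out (adjusted p = 0.0553). CKM and MB, the cytosolic creatine kinase and myoglobin, did not pass, at 49.1 to 306 and 12.5 to 42.0 TPM on day 11 and 122 to 1015 and 79 to 336 TPM on day 20.

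Of 29 genes of fatty acid uptake and oxidation 1 rose, CD36, and none fell. Day 20 replicates 1 and 3 lay above day 11 in 20 of them, against 19.8% of all genes, and the median log2 fold change was 0.75. CD36, which takes up fatty acids, was at 0.202, 1.29 and 0.332 TPM and then at 16.8, 20.0 and 4.24 TPM (4.31 ± 0.80, adjusted p = 0.0465), and was not called without day 20 replicate 2 (adjusted p = 0.0802). Without day 20 replicate 2, ACADS, a short-chain acyl-CoA dehydrogenase, and PPARA, the receptor that turns on fatty acid oxidation, rose (1.36 ± 0.23 and 1.31 ± 0.20, adjusted p = 0.0386 and 0.0310), and LPL fell. In day 20 replicate 2 both ACADS (30.4 TPM) and PPARA (15.7 TPM) stood near day 11. None of 22 glycolysis genes was called (median 0.72), with 11 (50%) above day 11 in replicates 1 and 3 and 20 positive log2 fold changes. None of 27 genes of the citric acid cycle and respiratory chain was called either (median 0.44). In 9 (33.3%) both replicates lay above day 11, and 26 log2 fold changes were positive. ALDOC, a glycolytic aldolase, rose without replicate 2.

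The cell cycle moved as a block in day 20 replicates 1 and 3. In 36 of 37 genes from S phase to mitosis both lay below all day 11 libraries, against 19.2% of all genes, and all 37 log2 fold changes were negative (median −0.71). None was called with 3 libraries each. MKI67, a marker of cycling cells, was at 56.8, 48.9 and 48.3 TPM on day 11 and at 19, 83.1 and 23.9 TPM on day 20. Day 20 replicate 2 was thus above day 11 and the other libraries below. TOP2A, which untangles DNA, ran 350, 279 and 273 TPM and then 96.6, 270 and 168 TPM. Without replicate 2 the median was −1.17 and 3 of the 37 fell: MKI67 (−1.24 ± 0.22, adjusted p = 0.0432) and MCM5 and MCM7 of the replicative helicase (adjusted p = 0.0469 and 0.0456).

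The genes that restrain the cycle were called in none of 12 cases with 3 libraries each (median 0.59). In 9 (75%) day 20 replicates 1 and 3 both lay above day 11, against 19.8% of all genes. CDKN1A, the p21 inhibitor, rose without day 20 replicate 2 (3.29 ± 0.53, adjusted p = 0.0426). It stood at 24.6, 31.6 and 51.5 TPM on day 11 and at 525, 65.7 and 182 TPM on day 20.

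Histone genes that are copied only in S phase were added as a list after their values were seen. Of 56 tested, 5 fell (H2AC12, H3C12, H3C13, H4C9 and H4C11) and none rose (list median −1.57). In 49 (87.5%) day 20 replicates 1 and 3 lay below day 11, against 19.2% of all genes. H4C11 was at 294, 151 and 200 TPM on day 11 and at 44.9, 45.1 and 59.6 TPM on day 20 (−2.21 ± 0.38, adjusted p = 0.0371). H3C13 was at 578, 271 and 565 TPM and then at 43.9, 89.9 and 117 TPM (−2.63 ± 0.46, adjusted p = 0.0399). In all 5, day 20 replicate 2 also lay below day 11. When that library was left out, H4C11 was the only one of them called, the other 4 had adjusted p-values between 0.0505 and 0.0791, and H1-5 and H3C1 were called in addition. The summed TPM of the histone list was 33471 to 60117 on day 11 and 13059 to 23484 on day 20. Histone genes of 1 class are near-identical copies, so that single members are uncertain.

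The promoters of 2 of the 5 are shown, chosen because they hold a match, with the same letters in capitals.

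H4C11, chr6:27823992-27824091, plus strand: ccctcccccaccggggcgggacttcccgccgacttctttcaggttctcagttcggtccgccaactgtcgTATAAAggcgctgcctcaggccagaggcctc
H3C13, chr1:149813694-149813793, minus strand: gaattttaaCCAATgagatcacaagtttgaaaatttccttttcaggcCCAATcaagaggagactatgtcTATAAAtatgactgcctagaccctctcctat

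Both hold TATAAA at 31 bases before the start, and H3C13 holds CCAAT at 91 and 53 bases. Of the 51 promoters found for the 56 histone genes, 52.9% held TATAAA and 84.3% CCAAT within 250 bases, against 4.24% and 34.4% of all 12298.

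**Figure D3:**
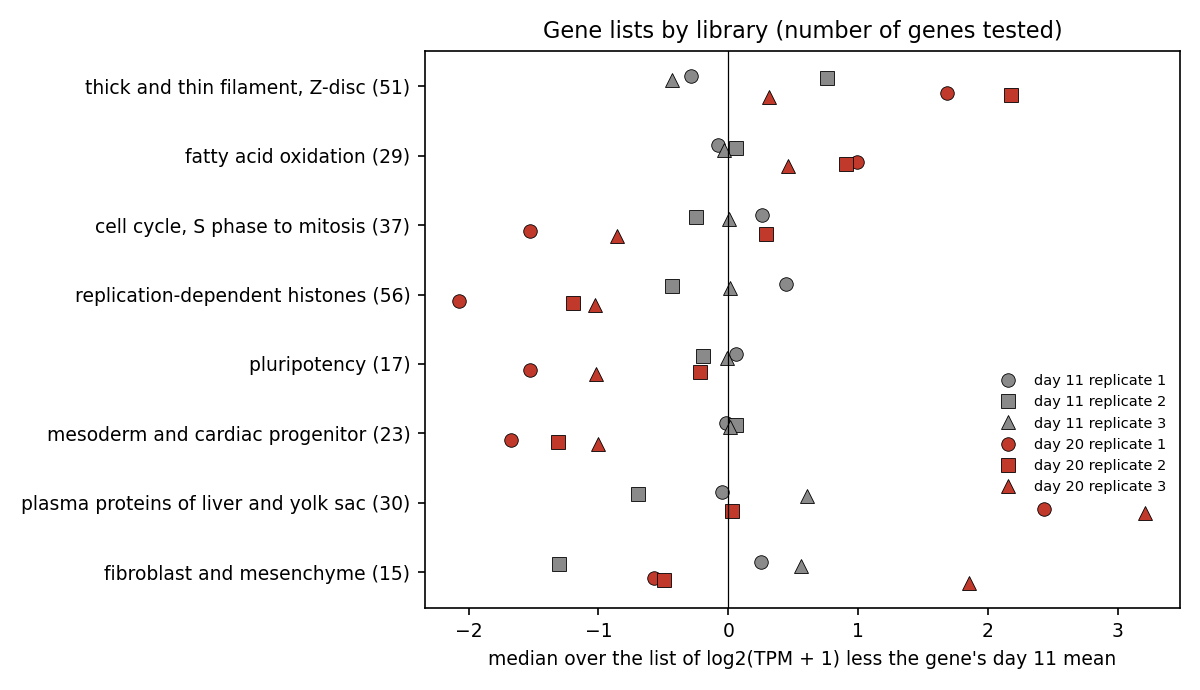
For 8 gene lists (number of genes tested in brackets), the median over genes of log2(TPM + 1) less the mean of day 11 in each of the 6 libraries. In day 20 replicate 2 (red square) the cell cycle stands at 0.29, beside day 11, and plasma proteins at 0.03, while in replicates 1 and 3 the cell cycle stands at −1.52 and −0.85 and plasma proteins at 2.43 and 3.21. The median over all genes tested, not drawn, was 0.443 in day 20 replicate 2, above both of its values here. It lay between −0.032 and 0.025 in the other libraries.

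Of 23 genes of mesoderm and early cardiac progenitors 3 fell and none rose. In 14 of them (60.9%, against 19.2% of all genes) day 20 replicates 1 and 3 lay below day 11. A positive log2 fold change was seen in 3, and the median was −1.53. Besides ISL1 the genes called lower were KIT, a receptor of progenitor cells, from 24.9, 63.1 and 32.7 TPM to 4.57, 8.25 and 7.14 TPM (−2.74 ± 0.40, adjusted p = 0.0255), and WNT2, a ligand of the early heart, from 23 to 55.9 TPM to between 5.95 and 10.3 TPM (−2.57 ± 0.44, adjusted p = 0.0371). WNT2 was not called without day 20 replicate 2 (adjusted p = 0.0628). The apelin receptor APLNR (chr11:57233577-57237250, minus strand), which guides early mesoderm, fell from 137, 280 and 159 TPM to 6.29, 9.96 and 8.83 TPM (−4.66 ± 0.38, adjusted p = 0.0124). Its ligand APELA fell too, from 62.5 to 108 TPM to between 5.68 and 15.6 TPM (−3.21 ± 0.39, adjusted p = 0.0173). In APLNR and APELA, the highest day 20 library remained several-fold under the lowest day 11 library.

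The study chose 11 genes on these libraries to mark day 11 progenitors, so that this list is no independent evidence of a direction. Its median was 0.30, and 1 of the 11 fell. Day 20 replicates 1 and 3 lay below day 11 in 3 of them (27.3%) and above in 0, against 19.2% and 19.8% of all genes. The gene that fell was CRHBP, which binds corticotropin-releasing hormone, from 192, 510 and 69.5 TPM to 6.20, 10.8 and 8.01 TPM (−5.09 ± 0.71, adjusted p = 0.0230). Its adjusted p was 0.0558 without day 20 replicate 2.

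Of 17 genes of pluripotency 4 fell and none rose (median −1.13). Day 20 replicates 1 and 3 lay below day 11 in 9 of them (52.9%) and above in 2 (11.8%), against 19.2% and 19.8% of all genes. A positive log2 fold change was seen in 5. LIN28A (chr1:26410817-26429728, plus strand), which blocks the maturation of let-7 microRNAs, was still at 1219, 838 and 919 TPM on day 11 and dropped to 101, 31.7 and 48.5 TPM on day 20 (−4.10 ± 0.58, adjusted p = 0.0230). DNMT3B, a DNA methyltransferase, fell from 146, 85.7 and 110 TPM to 25.6, 37.5 and 36.0 TPM (−1.92 ± 0.30, adjusted p = 0.0292). DPPA4 and ZFP42 fell from 28.1 to 61.3 TPM to at most 13.4 TPM, and at 6.28 and 4.70 TPM in day 20 replicate 2, 35.1% and 46.8% of their reads there were at the level of its background. DPPA4 was not called without that library (adjusted p = 0.0605). The core factors had been left behind earlier: POU5F1 was at 7.69 to 11.5 TPM on day 11 and 2.29 to 9.98 TPM on day 20, and NANOG and SOX2 at no more than 2.24 TPM on day 11.

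Of 12 regulators of fetal growth 2 fell (median −0.35). Besides LIN28A this was HMGA1 (chr6:34236873-34246231, plus strand), a chromatin protein of growing cells, from 1689, 1519 and 1194 TPM to 433, 298 and 354 TPM (−2.12 ± 0.37, adjusted p = 0.0392). Its relative HMGA2 overlapped between days, at 46.9 to 70.2 TPM and 36.6 to 82.9 TPM. LIN28B was at 201, 110 and 199 TPM and then at 26.7, 35.7 and 80.6 TPM (adjusted p = 0.111), and IGF2BP1, IGF2BP2 and IGF2BP3 had log2 fold changes between −0.84 and −0.49 and were not called. TRIM71, another protein of stem cells repressed by let-7, fell from 188, 187 and 222 TPM to 65.9, 36.0 and 40.5 TPM (−2.16 ± 0.39, adjusted p = 0.0412). It was on no list and was named after its values were seen.

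**Figure D4:**
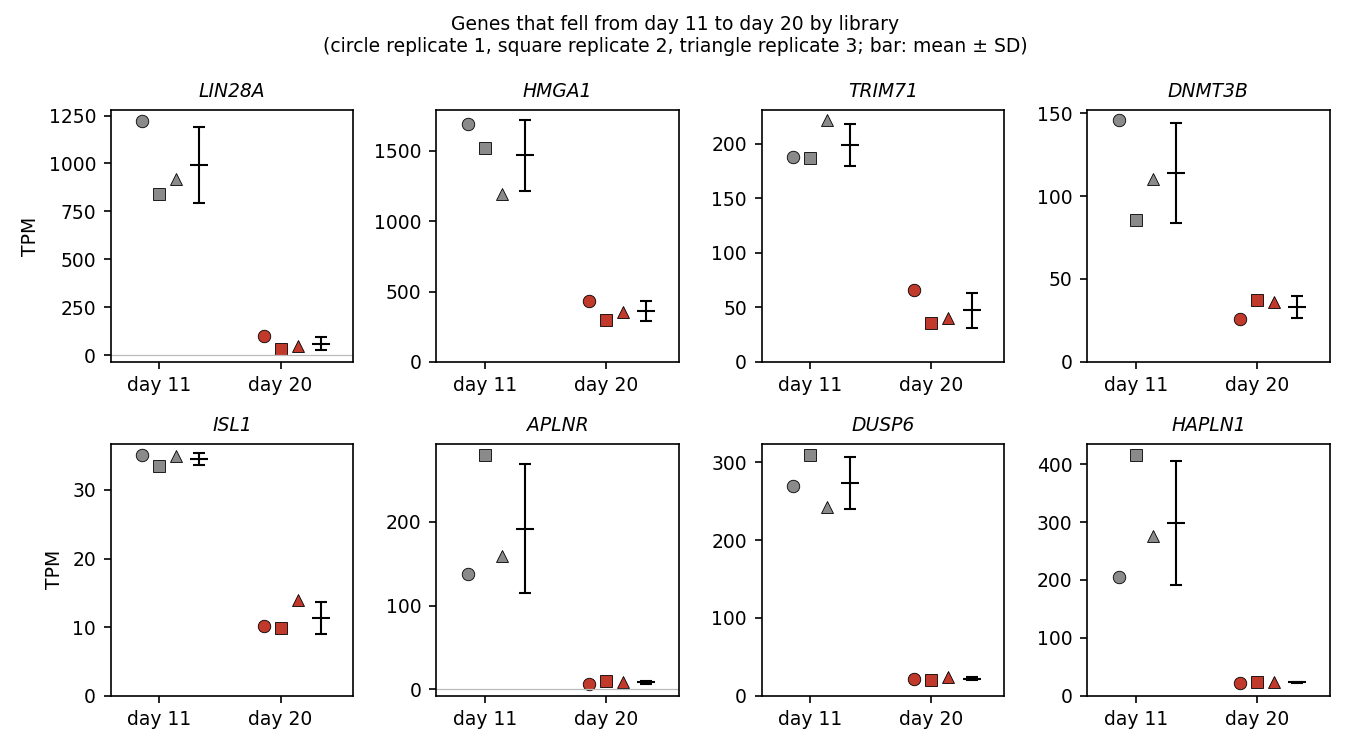
TPM (vertical axis) of 8 genes that fell, in the 3 day 11 (grey) and the 3 day 20 (red) libraries, with mean ± SD beside the points. In each of them all 3 day 20 libraries lie under all 3 day 11 libraries, in LIN28A at 31.7 to 101 TPM under 838 to 1219 TPM.

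In the FGF list, 2 of 21 genes rose and 3 fell (median −0.93), where 1.12% of all genes rose and 0.435% fell. Day 20 replicates 1 and 3 lay above day 11 in 5 of the 21 (23.8%) and below in 11 (52.4%). For all genes these shares were 19.8% and 19.2%. Signalling itself was not measured. The 3 genes called lower were feedback inhibitors that FGF signalling through ERK itself turns on. DUSP6, a phosphatase of ERK, was at 270, 309 and 243 TPM and then at 20.9, 20.0 and 23.7 TPM (−3.78 ± 0.31, adjusted p = 0.0124). SPRY4 (−2.26 ± 0.43, adjusted p = 0.0487) and DUSP4 (−1.78 ± 0.32, adjusted p = 0.0422) fell with it. Of these only DUSP6 passed without day 20 replicate 2. The ligands FGF7 and FGF18 rose: FGF18 (chr5:171419647-171457626, plus strand) from 1.97, 2.72 and 2.01 TPM to 78.2, 68.0 and 32.5 TPM (4.59 ± 0.42, adjusted p = 0.0172), and FGF7 from 0.376 to 0.528 TPM to between 7.18 and 25.7 TPM (4.91 ± 0.47, adjusted p = 0.0172). FGF8, a ligand of the early embryo, was at 40.4 to 192 TPM and then at 2.56 to 15.6 TPM and missed the threshold (adjusted p = 0.0526).

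In the Notch list of 17 genes, HEY2 rose and LFNG, which modifies Notch receptors, fell from 66.6, 159 and 51.4 TPM to 4.00, 14.9 and 5.45 TPM (−3.73 ± 0.57, adjusted p = 0.0282; list median −0.34). Of 28 Wnt genes 2 fell, WNT2 and SFRP5, a secreted Wnt antagonist (−2.33 ± 0.44, adjusted p = 0.0486). The list median of −0.18 turned positive (0.11) without day 20 replicate 2, when neither was called (adjusted p = 0.0628 and 0.0767) and SFRP4, another antagonist, was called higher. Of 23 BMP and TGF-beta genes, ID4, a target of BMP, fell from 166 to 354 TPM to between 51.7 and 58.5 TPM (−2.25 ± 0.35, adjusted p = 0.0292). INHBA, a subunit of activin, rose from 2.02 to 2.93 TPM to between 11.4 and 21.3 TPM (2.72 ± 0.32, adjusted p = 0.0173; list median −0.92).

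Insulin-like growth factor binding proteins moved in opposite directions. IGFBP5 was at 21.8, 27.9 and 41.5 TPM and then at 184, 540 and 256 TPM (3.21 ± 0.43, adjusted p = 0.0213), while IGFBP6 was at 76.9, 72.6 and 59.7 TPM and then at 20.4, 27.9 and 18.8 TPM (−1.79 ± 0.26, adjusted p = 0.0244). IGF2 overlapped between days, and the median of the 10 genes of this list was 0.45. Of 16 retinoic acid genes 1 rose, CYP26B1, which degrades retinoic acid, to between 1.39 and 4.58 TPM from at most 0.269 TPM. Its highest value was that of day 20 replicate 2, where 48.1% of its reads were at the level of the background. The list median was 0.35, and it was 0.03 after background subtraction and 0.39 without day 20 replicate 2. Of 9 neuregulin and ERBB genes 1 rose, the ligand HBEGF, from 3.92 to 8.55 TPM to between 20.0 and 40.7 TPM (2.11 ± 0.37, adjusted p = 0.0399; list median 0.84). HBEGF was not called without day 20 replicate 2 (adjusted p = 0.053).

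Of 14 small hormones and their binding proteins, CRHBP and CGA, the common alpha subunit of pituitary and placental hormones, fell and INHBA rose (median 0.04, and −0.26 without day 20 replicate 2). CGA was at 33.1, 147 and 47.5 TPM and then at 6.20, 3.24 and 3.15 TPM (−4.25 ± 0.67, adjusted p = 0.0292). The largest decrease of all named genes was that of the neuropeptide NPY, from 185, 1525 and 329 TPM to 9.62, 18 and 29.5 TPM (−5.26 ± 0.91, adjusted p = 0.0385). Day 11 replicate 2 held the most of all 3 transcripts, and 68.1% of the CGA reads in day 20 replicate 2 were at the level of its background. Their adjusted p-values without day 20 replicate 2 lay between 0.0558 and 0.0878.

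Laminins, of which LN-521 and LN-221 formed the coating, are also made by the cells. Of 15 laminin and basement membrane genes 2 rose, none fell and the median was 0.27. LAMA2, the alpha chain of muscle laminin and a chain of LN-221, was at 2.99, 8.61 and 3.02 TPM and then at 222, 369 and 68.9 TPM (5.28 ± 0.71, adjusted p = 0.0212). LAMA3, a chain of epithelial laminin, rose from at most 0.214 TPM to between 1.64 and 6.26 TPM (3.85 ± 0.56, adjusted p = 0.0255). The highest LAMA3 value was that of day 20 replicate 2, where 35.2% of its reads were at the level of the background.

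Of 27 matrix genes THBS2, a thrombospondin, rose from 0.175 to 0.613 TPM to between 5.87 and 6.54 TPM (3.76 ± 0.53, adjusted p = 0.0230). HAPLN1, which links hyaluronan to proteoglycans in the early heart, fell from 205, 416 and 276 TPM to 21.2, 23.8 and 23.5 TPM (−3.84 ± 0.38, adjusted p = 0.0173; list median 0.31). The day 20 values of HAPLN1 were nearly the same in all 3 libraries. Of 29 collagen genes COL9A2 fell (−2.48 ± 0.42, adjusted p = 0.0371, and 0.0582 without day 20 replicate 2; list median 0.45). COL3A1, the fibrillar collagen of loose tissue, ran 1816, 423 and 3745 TPM and then 1726, 723 and 17006 TPM, and was not called.

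Genes of plasma proteins that yolk sac and fetal liver secrete were high in part of the day 20 libraries. AFP, the fetal albumin, was at 231, 35.8 and 581 TPM on day 11 and at 13772, 516 and 14210 TPM on day 20 (5.05 ± 1.47, adjusted p = 0.134). Replicates 1 and 3 were far above day 11, and replicate 2 lay within its range. AHSG, the fetuin A of fetal plasma, was at 2.75, 0.0819 and 4.89 TPM and then at 1372, 24.4 and 2146 TPM, above day 11 in all 3. SERPINA1, the alpha-1 antitrypsin, was at 39.3, 13.8 and 80.5 TPM and then at 4469, 163 and 2091 TPM. In both genes replicate 2 was the lowest of day 20 by over 10-fold. The summed TPM of the 30 genes was 2936 to 5958 on day 11 and 30133, 1567 and 36711 on day 20.

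Of the 30 genes 22 (73.3%) had day 20 replicates 1 and 3 above day 11, against 19.8% of all genes. With 3 libraries each, 3 of the 30 rose, APOH, FETUB and ORM1 (list median 2.77). Each of the 3 had 1 count in all on day 11, and in day 20 replicate 2 between 31.8% and 41.6% of their reads were at the level of its background. Without replicate 2, 11 of the 30 rose (median 3.19): APOA4, APOC3, APOH, AHSG, SERPINA1, TF, FETUB, VTN, AMBP, HP and ORM1. AHSG had a log2 fold change of 9.39 ± 1.20 (adjusted p = 0.0270), SERPINA1 of 6.19 ± 0.85 (adjusted p = 0.0305) and TF, which carries iron, of 7.02 ± 0.79 (adjusted p = 0.0199). The apolipoprotein genes APOA1 and APOB were already at 88.8 to 842 TPM on day 11 and were not called in either fit.

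Of 23 complement and coagulation genes 5 rose and none fell with 3 libraries each (median 2.05), and 8 rose without replicate 2. SERPIND1, heparin cofactor II, was at 0.668, 1.21 and 1.63 TPM and then at 73.1, 10.3 and 74.8 TPM (5.46 ± 0.89, adjusted p = 0.0327). F5 and F12 of the clotting cascade and C1S of complement rose from at most 2.56 TPM to between 3.04 and 28.5 TPM, and CFI, which inactivates complement, from 2 counts in all to between 0.956 and 6.65 TPM. The inter-alpha-trypsin inhibitor ITIH2, a hyaluronan-binding plasma protein, was at 0.807, 0.969 and 0.331 TPM and then at 398, 34.7 and 222 TPM (8.27 ± 1.09, adjusted p = 0.0208), and ITIH1 and KNG1, the precursor of bradykinin, were also among the 15 largest increases. For KNG1, 78.8% of the reads in replicate 2 were at the level of its background, and day 11 held 1 count. For CFI the share of such reads in replicate 2 was 33.2%.

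**Figure D5:**
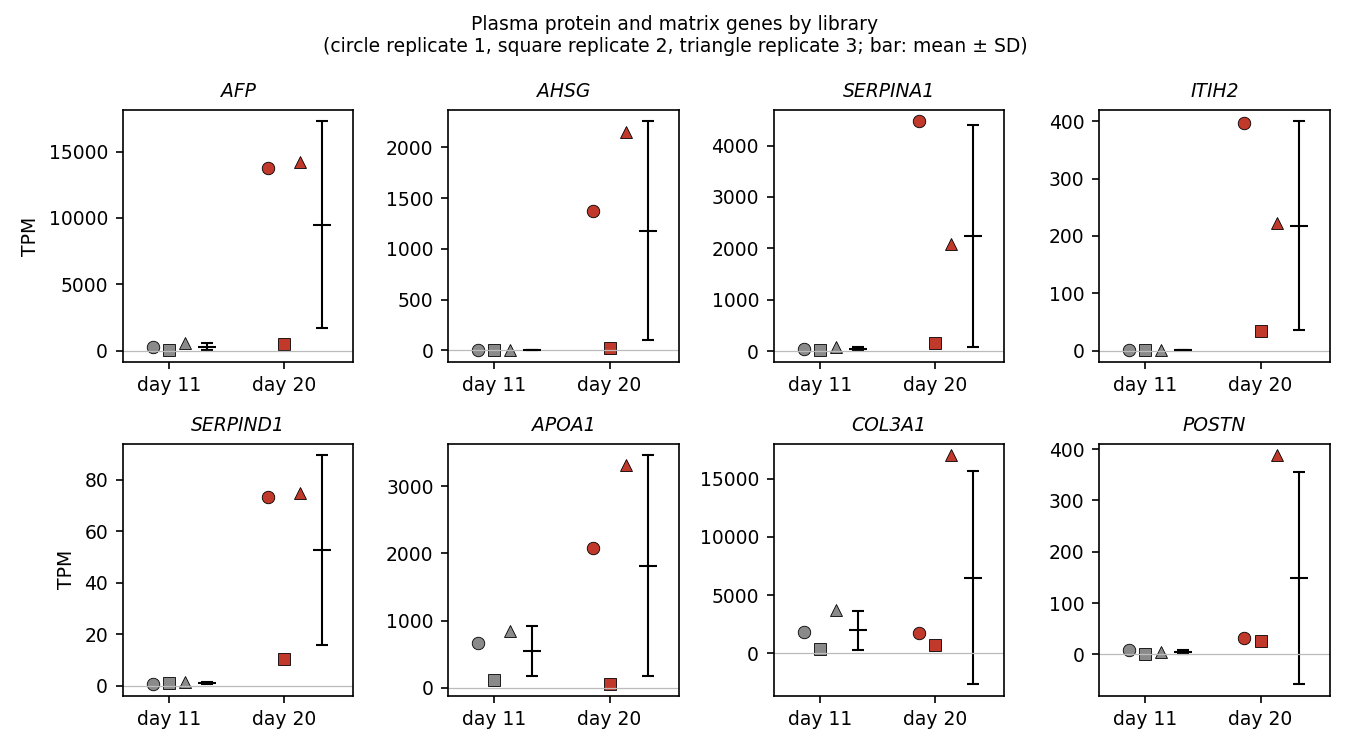
TPM (vertical axis) of 6 plasma protein genes and 2 matrix genes in the 3 day 11 (grey) and the 3 day 20 (red) libraries, with mean ± SD beside the points. AFP, AHSG, SERPINA1, ITIH2 and SERPIND1 are high in day 20 replicates 1 and 3 and low in replicate 2, while COL3A1 and POSTN are high in replicate 3 alone.

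Of 21 transcription factors of endoderm 1 rose, NR1H4, the bile acid receptor, to between 3.63 and 7.31 TPM from 1 count in all on day 11 (list median −0.10, and 0.04 without day 20 replicate 2). Day 20 replicates 1 and 3 lay above day 11 in 7 of the 21 (33.3%) and below in 3 (14.3%), against 19.8% and 19.2% of all genes. HNF4A was at 33.6, 14.2 and 59.9 TPM and then at 32.9, 6.56 and 26.4 TPM, and FOXA2 at 50.7 to 83.5 TPM and 12.5 to 63.7 TPM. Of 20 genes of simple epithelium CDH17, a cadherin of gut and liver, rose to between 5.16 and 26.9 TPM from 2 counts. Of the CDH17 reads in day 20 replicate 2, 42.5% were at the level of the background. The list median was −0.07, and turned positive with upper-quartile scaling (0.04) and without replicate 2 (0.25). EPCAM and KRT8 were at 169 to 273 and 1533 to 2193 TPM on day 11 and at 29.4 to 235 and 322 to 1192 TPM on day 20. TM4SF4, a membrane protein of liver and gut, showed the largest increase of the named genes, from 2 counts to 150, 14.8 and 11.5 TPM, with a ratio of pooled CPM of 1216 (exact 95% interval 336 to 10051).

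Markers of other cell types were seldom called, but so were all genes (1.12% higher and 0.435% lower), so that few calls were to be expected. None of the 15 fibroblast, 15 smooth muscle, 15 epicardial, 22 endothelial, 7 blood and 16 neural and neural crest genes tested passed with 3 libraries each, with medians of 0.42, −0.27, −0.01, −0.78, 1.70 and 1.51. Without day 20 replicate 2 the medians of these lists were 0.92, −0.27, 0.001, −0.79, 1.07 and 0.29. Those of the blood and neural lists were thus lower without that library. That of the epicardial list changed sign with the scaling, between −0.14 and 0.15. S100A4 of fibroblasts, CSPG4 of pericytes and STMN2 of neurons rose without day 20 replicate 2. STMN2 was at 1.39 to 3.39 TPM on day 11 and at 33.9, 16.5 and 304 TPM on day 20. Of 8 skeletal muscle genes TNNT3, a fast troponin T, rose from 0.560 to 1.20 TPM to between 4.83 and 14.6 TPM (3.19 ± 0.59, adjusted p = 0.0445). The list median was 1.79, and 0.68 without day 20 replicate 2.

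Of 14 splicing regulators RBFOX1 and MBNL1, which steer muscle splicing, rose (3.34 ± 0.63 and 2.04 ± 0.33, adjusted p = 0.0469 and 0.0309; list median 0.16). RBFOX1 was not called when day 20 replicate 2 was left out (adjusted p = 0.072). MBNL1 was at 7.12, 4.82 and 9.80 TPM and then at 30.3, 46.0 and 25.0 TPM. Of 16 cholesterol genes ABCG1, which exports cholesterol, rose from 0.261 to 1.38 TPM to between 9.45 and 16.3 TPM (4.18 ± 0.65, adjusted p = 0.0292; list median 0.35). Of 27 genes of hypoxia and stress, 12 of antigen presentation and 17 HOX genes none was called, with medians of 0.41, 1.10 and 0.16, the last −0.0054 when scaled by library size without day 20 replicate 2. Without replicate 2, BNIP3, NDRG1, CDKN1A and TRIB3 of the stress list rose, and NDRG1 and TRIB3 stood at 12.1 and 5.27 TPM in replicate 2, no higher than on day 11.

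The rest of the 15 largest increases were MGAT4C, a glycosyltransferase, MEP1A, a metalloprotease of gut and kidney, GPAT3, which makes triglyceride precursors, OLR1, a receptor of oxidised lipoprotein, and SLC2A5, the fructose transporter, with log2 fold changes between 6.00 and 8.01. Their day 20 libraries lay between 2.65 and 62.2 TPM and those of day 11 at no more than 0.418 TPM. In day 20 replicate 2, between 7.43% (GPAT3) and 46.1% (MEP1A) of their reads were at the level of its background. The rest of the 15 largest decreases were PRRX2, PCAT14, GPR19, PRTG, FOXH1 and TUNAR, between −3.79 and −3.17. PRTG, an adhesion receptor of the early embryo, was the most abundant of them, with 434, 522 and 486 TPM on day 11 and 36.6, 57.4 and 61.6 TPM on day 20 (−3.34 ± 0.40, adjusted p = 0.0173). FOXH1, the partner of SMAD2 in Nodal signalling, fell from 33.3 to 130 TPM to between 3.23 and 15.9 TPM. FOXH1 and TUNAR were not called without day 20 replicate 2 (adjusted p = 0.063 and 0.0805). Exons of FOXH1 overlap KIFC2 on the other strand, as do those of WNT2 with CFTR, of F12 with GRK6, and of PDGFD with DDI1. On that strand exons of FETUB and KNG1 also overlap HRG-AS1. Those of DUSP6, C8B, PDLIM3, INHBA, IGFBP5, LAMA2, THBS2, MBNL1 and PRTG overlap antisense or unnamed genes. MYPN shares exons with RN7SKP202 on its own strand. Reads of all these genes could be shared, and other named genes may overlap too.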

How the data were processed

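Day 11 and day 20 of the laminin protocol, with 3 bulk RNA-seq libraries each, were compared, and libraries of days 0, 4 and 9 entered only the background estimate and 1 alternative fit. Paired-end reads were aligned by the authors to GRCh38 with STAR 2.5.2b. After leaving out ribosomal and mitochondrial genes, the authors deposited read counts per gene from featureCounts 1.5.1. The authors also deposited TPM, computed from these counts. Per the file headers, the table of samples lists a score of RNA integrity, the fraction of reads mapped uniquely, and the lane.

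Counts were tested with edgeR 4.0.16 in R 4.3.3 (robust quasi-likelihood test, two-sided, TMM scaling, Benjamini-Hochberg over all genes tested), after filterByExpr had removed genes at settings of 10 for the count and 15 for the total. The standard error is the log2 fold change divided by the square root of F. TPM values are as deposited. The background in each library is the median of reads per kb over autosomal protein-coding genes of at least 2 kb with no more than 2 counts over days 0 to 11. Totals of 15675095 to 26858099 counts and the spread of 3 libraries set the precision. Named genes are the members of 45 lists that were called or define the list, and the 15 largest increases and decreases that reached an average of 10 CPM on 1 of the days. The members and lists were chosen with earlier results of these data known. Alternatives were DESeq2 1.42.0, limma 3.58.1 on log2 TPM plus 1 or 0.1, upper-quartile and library-size scaling, other filters and thresholds, all days in 1 fit, plate or lane blocks, background subtraction, and each replicate left out. Gene coordinates are from GENCODE v44, and 46872 of 48777 genes matched. Scripts were tested on simulated data. Plates 2 and 6 hold libraries of both days. By their labels, day 20 replicates 1 and 2 share plate 2, whereas each day 11 library has its own plate number. Whether a shared plate number means a shared culture is not stated, so that 3 independent cultures on day 20 cannot be assumed. Deviations from the day mean correlated at −0.18, 0.0037 and 0.38 across genes for libraries of 1 plate. Within a day these deviations cancel, so that the correlations cannot exclude an effect of the plate. The samples were not paired by plate in the main fit, and the plate as a block was an alternative that left 3 of the 332 calls.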

Additional observations from a re-analysis of the deposited data

How the results depend on the processing

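With 3 libraries each, 332 genes were called. The number was 1778 in DESeq2 (329 of the 332 among them), 2732 with all days in 1 fit (332 among them), 137 with the sequencing lane as a block, 3 with the plate as a replicate block, 0 at an adjusted p-value under 0.01, and 0 to 510 when 1 replicate was left out. It stayed within 1.5 times, at 241 to 383, under the other alternatives, namely both other scalings, both filters, limma, background subtraction (343, of which 301 shared), a change of 1 or more on the log2 scale in either direction, and the adjusted p-value alone. Without day 20 replicate 2, 510 were called. That number became 2390 in DESeq2, 3240 with all days in 1 fit, 2716 with no filter on low counts, 0 with the lane as a block (2463 at an unadjusted p-value under 0.05) and 0 at an adjusted p-value under 0.01. It was 552 with the plate as a replicate block (317 shared), and 0 to 915 with 1 replicate left out, 0 without day 11 replicate 1 or 3 and 86 without day 11 replicate 2. The cause of these differences was not tested. Without day 20 replicate 2 and 1 more of its day, the lone sample is assumed to vary like the day 11 group. Leaving out a library leaves fewer samples, and the block by plate or lane leaves fewer degrees of freedom. Each of the lanes 1, 2 and 5 held 1 library of each day. The median difference in log2 CPM within these lanes was 3.08, 3.79 and 3.83 for the 239 genes that rose and −1.92, −2.14 and −2.18 for the 93 that fell, and the direction in each lane is set by the lack of overlap between days. Plate 5 held a day 11 library only. The median log2 fold change of all genes lay between −0.15 (scaling by library size, without day 20 replicate 2) and 0.18 (upper quartile), so that changes under this size have no fixed direction.

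For the 100 called genes named in the text, no log2 fold change reversed in 1699 values under 17 alternatives, and 1056 stayed past the threshold. Called genes had no overlap between days, so that a reversal was hardly possible and its absence is no evidence. DESeq2 kept 99 of the 100, background subtraction 95, scaling by library size 83, leaving out day 20 replicate 2 74, the lane block 51, the plate block 2, and leaving out day 11 replicate 1, 2 or 3 kept 0, 1 and 0. At these depths a gene with 1 to 3 counts over the day 11 libraries, as 29 of the 239 that rose had, has a ratio with wide counting limits, and 1 more had none.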

Other observations

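Outside the lists, further genes that passed the test can be grouped by what they encode. They were picked after their values were seen and carry no test as groups. Of the terminal complement proteins that form the membrane attack complex, C6, C8A, C8B and C9 rose from at most 0.234 TPM on day 11 to between 0.764 and 8.50 TPM on day 20. Day 11 held 1 to 4 counts of each, and between 26.4% and 54.2% of their reads in day 20 replicate 2 were at the level of its background. C9 was not called without that library (adjusted p = 0.0522). PDGFD, a growth factor of mesenchyme, was at 8.19, 17.6 and 9.62 TPM and then at 207, 288 and 93.9 TPM (3.87 ± 0.46, adjusted p = 0.0173, edgeR). The long noncoding RNA LINC00881, known from heart, was at 3.09, 3.64 and 2.14 TPM and then at 182, 101 and 68.8 TPM (adjusted p = 0.0172). Both had no overlap between days.

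Among the genes that fell were several small nuclear RNAs and zinc finger genes. RNU5E-1, a U5 RNA of the spliceosome, was at 516, 608 and 614 TPM and then at 123, 195 and 193 TPM (−1.90 ± 0.31, adjusted p = 0.0334), and RNVU1-27 and RNVU1-31, variants of U1, fell by 1.83 and 2.88 on the log2 scale. These are short genes with near-identical copies, so that their counts are uncertain. The zinc finger genes ZNF90, ZNF611, ZNF761, ZNF765 and ZNF813 fell from between 18.8 and 115 TPM to between 6.15 and 30.4 TPM, and all 5 were also called without day 20 replicate 2. ZNF761 shares exons with TPM3P9, which fell as well. BMPER, which binds BMP proteins, fell from 141, 168 and 210 TPM to 30.9, 30.6 and 27.8 TPM (−2.67 ± 0.30, adjusted p = 0.0173).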
